A study of Rattus norvegicus with 6 samples.

Results

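The 36 genes described here copy DNA or supply its building blocks, and were taken by symbol from a table of 17139 rat genes. They cover origin licensing, helicase activation, polymerases and primase, the sliding clamp and its loaders, single-strand binding and lagging-strand processing, chromatin assembly, and nucleotide supply. Each symbol matched a single row of the table, and all 36 genes passed the filter on low counts. The RNA, selected for its poly(A) tail, came from cultured primary cells of rat nucleus pulposus, the soft centre of an intervertebral disc. The cells were given 10 µM bradykinin, a vasoactive peptide that acts through the receptors B1 and B2 (n = 3 libraries), or were left untreated as controls (n = 3 libraries). The stated aim was to see what bradykinin does to transcripts, above all those of senescence and extracellular matrix. Strain, age, sex, the length of treatment and the origin of the replicates (separate animals or cultures) are not given in the sources used here, so p-values cover only library-to-library spread, which may be technical.

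Before a cell divides, the origin recognition complex, Cdc6 and Cdt1 load the ring of Mcm2 to Mcm7 onto DNA in G1 phase. In S phase, Cdc45 and the GINS complex turn that ring into the moving helicase, DNA polymerases copy both strands, and the clamp PCNA keeps them on the template. Ribonucleotide reductase, thymidylate synthase and thymidine kinase provide the deoxynucleotides. Many of these genes are known targets of E2F transcription factors, are transcribed in proliferating cells, and are low in senescent ones. A higher level in bulk RNA can come from more cells in S phase or from more RNA of the gene per cell, and these cannot be told apart here.

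Totals ranged from 12883067 to 14604917 counts per library with bradykinin and from 14252966 to 15462764 in controls. Levels are CPM, a gene's count as a share of the library, scaled by TMM over the tested genes; they are not divided by gene length, so levels of different genes are not compared. The third bradykinin library was unlike the rest, with Spearman correlations across genes of 0.96 to 0.963 to each of them, against 0.992 to 0.996 among the other 5 libraries. For that reason the main results are given with and without it. Of 13 nucleus pulposus and notochord marker symbols listed, 9 had a row and 8 were tested, and they did not move one way. Car12 and Ca12, both listed, are symbols of the same gene, which had its row as Car12. EdgeR called 0 of them in the 6 libraries and 2 without replicate 3, Acan higher and Car3 lower. Acan, the gene of the proteoglycan aggrecan, was at 301 to 512 CPM with bradykinin and 257 to 272 CPM in controls (log2 fold change 0.95 without replicate 3, edgeR adjusted p = 1.6e-07). Car3, a carbonic anhydrase gene, was at 2.60 to 3.58 CPM with bradykinin and 7.66 to 8.49 CPM in controls (-1.44 without replicate 3, edgeR adjusted p = 0.00103; DESeq2 adjusted p = 5.3e-05 in the 6 libraries). Pax1, a transcription factor gene of the developing disc, was at 82.3 to 94.7 CPM with bradykinin and 97.1 to 116.5 CPM in controls, without overlap, and did not pass. The groups overlapped for the remaining tested markers of this list, Krt8, Cd24, Car12, Sox9 and Foxf1. Krt8 and Car12 were low, with at most 1.76 CPM for Krt8 and 1.03 CPM for Car12 in any library. Col2a1 had 2 counts or fewer in each library. The fibroblast collagen gene Col1a1 was at 37620 to 48670 CPM with bradykinin and 41370 to 44560 CPM in controls. Its groups overlapped, with a log2 fold change of 0.01 in the 6 libraries. EdgeR called 0 of the 7 fibroblast markers with or without replicate 3. Of the endothelial markers, 4 of 6 had a row and summed to 0.456 to 1.53 CPM with bradykinin and 0.608 to 1.299 CPM in controls, and 3 of 7 macrophage and leukocyte markers to 9.93 to 14.1 CPM with bradykinin and 8.79 to 9.90 CPM in controls. Nearly all of the leukocyte sum was Cd14, a co-receptor for bacterial lipopolysaccharide, at 9.70, 9.95 and 13.8 CPM with bradykinin and 9.29, 9.55 and 8.31 CPM in controls. Its groups did not overlap, bradykinin replicate 3 was highest, and it did not pass (0.30 ± 0.18, edgeR adjusted p = 0.737; 0.12 ± 0.13, adjusted p = 0.754 without replicate 3). The macrophage genes Cd68 and Csf1r were near 0, with Cd68 at 0.0788 to 0.260 CPM with bradykinin and 0.203 to 0.390 CPM in controls. Csf1r was at 0.0 to 0.158 CPM with bradykinin and 0.0 to 0.270 CPM in controls. The part of these cell types in the results was not tested.

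Most replication genes had higher levels with bradykinin, by small amounts. The level was higher in the bradykinin group for 35 of 36 genes, against 51.3% of the 12413 genes tested, and the median log2 fold change (bradykinin over control) was 0.31, against 0.01 for all tested genes. No single member passed edgeR's test in the 6 libraries. With bradykinin replicate 3 left out, 10 members rose and 0 fell, against 1.95% of all genes called higher in that fit. Among them were Rrm2, the small subunit of ribonucleotide reductase, Fen1, Lig1, Rpa2 and Pcna. The exception in direction was Rfc5, a clamp loader subunit. The members and lists were chosen with earlier results of these data known. Shares of members set against all genes here and below are therefore descriptions, not independent tests.

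In the 6 libraries edgeR's quasi-likelihood test called 0 of the 36 members, and 0.0% of all tested genes, at a Benjamini-Hochberg adjusted p of 0.05 or less. Adjusted p-values of members ran from 0.525 for Rrm2 to 0.839 for Pole. At an unadjusted p under 0.05 there were 18 members, all higher with bradykinin, against 3.95% of all tested genes on that side. Limma-voom also called 0 members and 0.0% of all genes, with 17 members at an unadjusted p under 0.05, against 6.83% of all genes. DESeq2 called 1 member, Rrm2 (25 genes higher and 19 lower in all), where it called 0.354% of all genes. The 10 members called by edgeR without replicate 3 were Rrm2, Rrm1, Fen1, Lig1, Rpa2, Pcna, Chtf18, Mcm2, Mcm5 and Pole, against 1.95% of 12536 genes called higher in the same fit. In that fit 34 of 36 members were on the higher side, against 6269 of 12536 genes, and 29 had an unadjusted p under 0.05, all higher, against 8.5% of genes. Over the same 5 libraries DESeq2 called 9 members, where it called 2.77% of genes, and limma-voom 10, where it called 2.98%. Scaled by library totals alone, edgeR called 4 members over these libraries, where it called 2.77% of genes, and the split of all called genes was 162 higher and 185 lower, against 244 higher and 144 lower with TMM. These 5 libraries are among the 6, so fits on them are no separate evidence. Such fits set bradykinin replicates 1 and 2 against the controls, and their p-values leave out the spread that replicate 3 adds. Genes said to rise without replicate 3 were called higher by edgeR in that fit. Limma-voom with sample quality weights, which kept all 6 libraries and gave replicate 3 a weight of 0.0517, against 1.31 to 2.81 for the others, called Rrm2, Fen1, Lig1, Rpa2 and Pcna, where it called 2.09% of all genes. These counts also lean on single controls: leaving out control replicate 1, 2 or 3 as well as bradykinin replicate 3 left 3, 1 or 8 members called. The counts of all genes called in these fits are given in the last section.

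The groups were also apart in the median of the members. On the log2 CPM scale, their median deviation from the 6-library mean was 0.16 for bradykinin replicate 1, 0.04 for replicate 2 and 0.27 for replicate 3, against -0.22, -0.13 and -0.08 in control replicates 1, 2 and 3. All 3 bradykinin medians were thus above all 3 control medians, but bradykinin replicate 2 lay about as near to control replicate 3 as to bradykinin replicate 1. Summed over the members, the level was 2313, 2154 and 2412 CPM with bradykinin, against 1788, 1876 and 1960 CPM in controls. Control replicate 1 was the lowest library for 25 of the 36 genes, against 1492 of the 12413 tested genes. Bradykinin replicate 3 was the highest for 21 of the 36. Across all tested genes, replicate 3 was the highest library for 37.9% and the lowest for 37.6%, while it was the lowest for 2 members, Mcm2 and Pole. The groups did not overlap for 23 members, all higher with bradykinin, against 8.84% of tested genes on that side and 8.71% on the lower side. Between bradykinin replicates 1 and 2 and the controls, 29 members did not overlap, all higher, against 16.2% of tested genes on that side and 15.5% on the lower side.

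**Figure D1:**
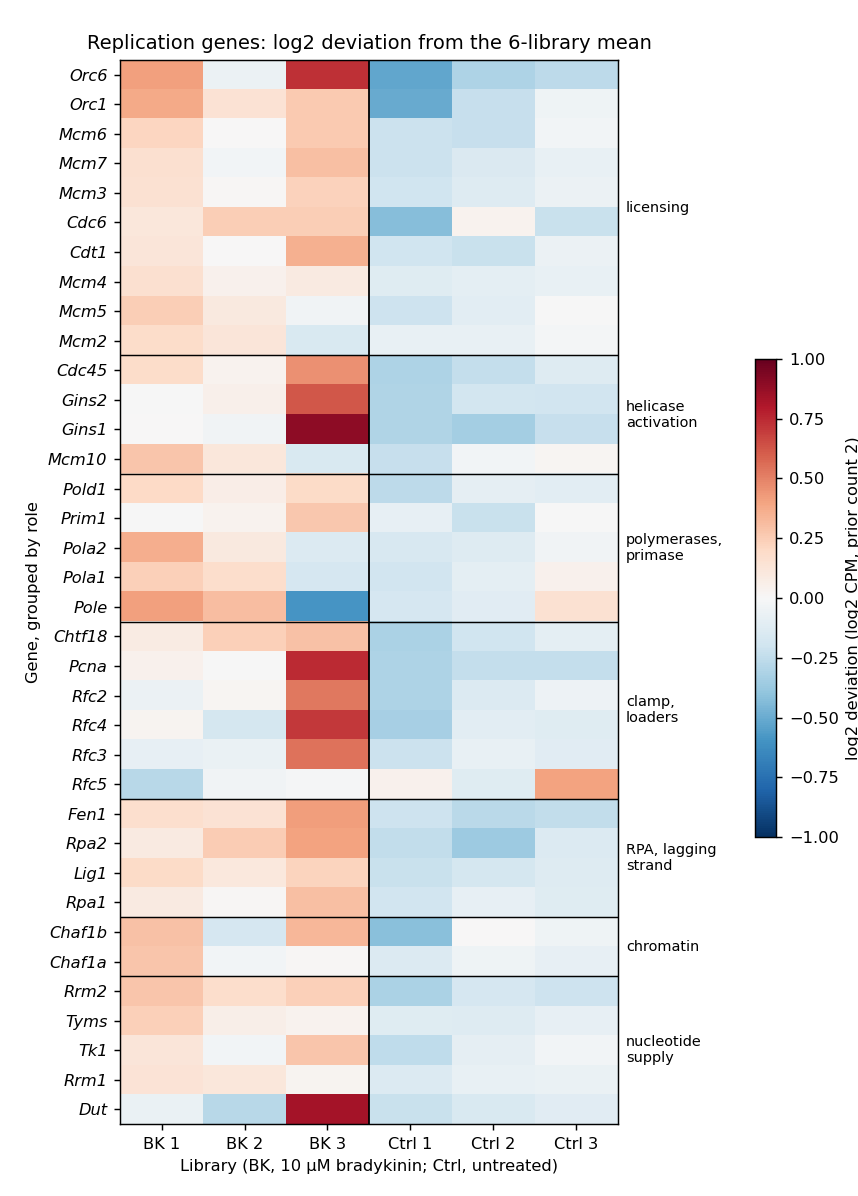
Log2 deviation of each of the 36 genes from its mean over the 6 libraries (colour), with bradykinin libraries (BK 1 to 3) left of controls (Ctrl 1 to 3) and genes grouped by role. Most members are red in bradykinin columns and blue in control columns; in BK 3 the deviations scatter more among genes (SD 0.318) than in any other library (0.0912 to 0.149).

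The promoters of members were read for the letters of E2F sites, since E2F factors are known regulators of this gene class. RefSeq promoters of the GRCr8 assembly, 250 bases before to 50 after each gene's start, were found for 32 members, and not for Rrm2, Orc1, Cdc6 and Mcm4. The E2F words searched on both strands were TTTCCCGC, TTTCGCGC, TTTGCCGC and TTTGGCGC. At least 1 of them stood in 13 of 32 member promoters (40.6%), against 17 of 57 promoters of other pathway genes (29.8%), 4.21% of 9482 tested genes with a promoter and 2.25% of all 27457 promoters. Other pathway genes had a median log2 fold change of 0.14 in the 6 libraries, against 0.31 for the members. CCAAT, the letters of the NF-Y box, stood in 62.5%, against 38.2% of tested genes. The GC box GGGCGG stood in 65.6% and 63.9%, and those of the CHR element, TTTGAA or TTCGAA, in 12.5% and 13.5%. Of the 10 members called without bradykinin replicate 3, 5 held an E2F word, 4 did not (Pcna, Fen1, Chtf18 and Rrm1), and Rrm2 had no promoter to search. The 13 members with a word had a median log2 fold change of 0.30 in the 6 libraries and 0.27 without replicate 3, and the 19 without a word 0.32 and 0.22. A match is a run of letters, not a tested site, and no match says only that these letters are not in this window.

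The 5 promoters with a word among the called members are printed with Pcna, a called member without one, and Rfc5, the member on the lower side, 5′ to 3′ on the gene's own strand. Capitals mark an E2F word or its reverse complement, and those of Mcm2 and of the far site of Mcm5 are overlapping words on opposite strands.
Mcm2, chr4:122918045-122918344, minus strand: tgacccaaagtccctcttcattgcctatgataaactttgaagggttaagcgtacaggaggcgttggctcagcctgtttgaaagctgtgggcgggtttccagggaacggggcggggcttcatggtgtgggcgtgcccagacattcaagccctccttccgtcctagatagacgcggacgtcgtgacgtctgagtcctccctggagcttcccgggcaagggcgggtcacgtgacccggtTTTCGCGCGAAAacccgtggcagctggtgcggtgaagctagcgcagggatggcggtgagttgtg
Mcm5, chr19:13488563-13488862, plus strand: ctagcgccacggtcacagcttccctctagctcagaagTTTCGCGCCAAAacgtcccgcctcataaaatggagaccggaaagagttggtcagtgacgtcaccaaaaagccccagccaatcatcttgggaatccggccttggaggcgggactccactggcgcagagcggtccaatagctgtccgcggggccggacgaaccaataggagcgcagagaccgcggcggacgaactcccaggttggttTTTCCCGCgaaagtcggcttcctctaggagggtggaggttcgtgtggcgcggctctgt
Pole, chr12:52053613-52053912, minus strand: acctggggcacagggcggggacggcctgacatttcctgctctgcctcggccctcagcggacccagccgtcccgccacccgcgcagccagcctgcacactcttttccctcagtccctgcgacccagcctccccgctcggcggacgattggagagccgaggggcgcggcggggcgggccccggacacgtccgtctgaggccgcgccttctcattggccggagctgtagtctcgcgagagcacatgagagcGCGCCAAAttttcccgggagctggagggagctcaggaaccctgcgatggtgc
Lig1, chr1:83242920-83243219, plus strand: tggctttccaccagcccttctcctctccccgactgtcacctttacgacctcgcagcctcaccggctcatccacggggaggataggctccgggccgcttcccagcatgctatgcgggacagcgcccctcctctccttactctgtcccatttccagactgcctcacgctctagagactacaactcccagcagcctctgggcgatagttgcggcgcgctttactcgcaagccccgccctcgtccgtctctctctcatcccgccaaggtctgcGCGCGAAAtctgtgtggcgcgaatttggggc
Rpa2, chr5:150260522-150260821, plus strand: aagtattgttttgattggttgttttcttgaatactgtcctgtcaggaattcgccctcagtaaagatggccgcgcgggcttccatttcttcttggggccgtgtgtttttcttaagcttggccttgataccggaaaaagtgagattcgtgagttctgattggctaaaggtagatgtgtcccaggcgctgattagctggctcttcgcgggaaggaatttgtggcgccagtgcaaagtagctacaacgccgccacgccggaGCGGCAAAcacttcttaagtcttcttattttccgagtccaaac
Pcna, chr3:139955771-139956070, minus strand: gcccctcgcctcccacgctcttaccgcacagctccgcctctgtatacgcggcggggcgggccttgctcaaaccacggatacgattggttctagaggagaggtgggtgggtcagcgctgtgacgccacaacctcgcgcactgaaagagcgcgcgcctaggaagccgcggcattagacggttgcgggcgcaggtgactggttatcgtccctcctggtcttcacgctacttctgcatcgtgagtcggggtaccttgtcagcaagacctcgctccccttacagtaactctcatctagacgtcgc
Rfc5, chr12:44868072-44868371, plus strand: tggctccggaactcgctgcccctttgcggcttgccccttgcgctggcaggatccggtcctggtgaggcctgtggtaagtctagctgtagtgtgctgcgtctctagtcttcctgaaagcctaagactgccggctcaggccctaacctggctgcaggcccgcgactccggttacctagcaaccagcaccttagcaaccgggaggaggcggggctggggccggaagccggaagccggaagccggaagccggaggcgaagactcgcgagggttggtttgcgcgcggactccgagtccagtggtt
In Mcm2 the overlapping words began 14 and 10 bases before the start of the gene, in Mcm5 the nearest began 8 bases before it and the far ones 213 and 209, and in Pole the word began 2 bases before it. The words of Lig1 and Rpa2 began at bases 20 and 8 of the gene.

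**Figure D2:**
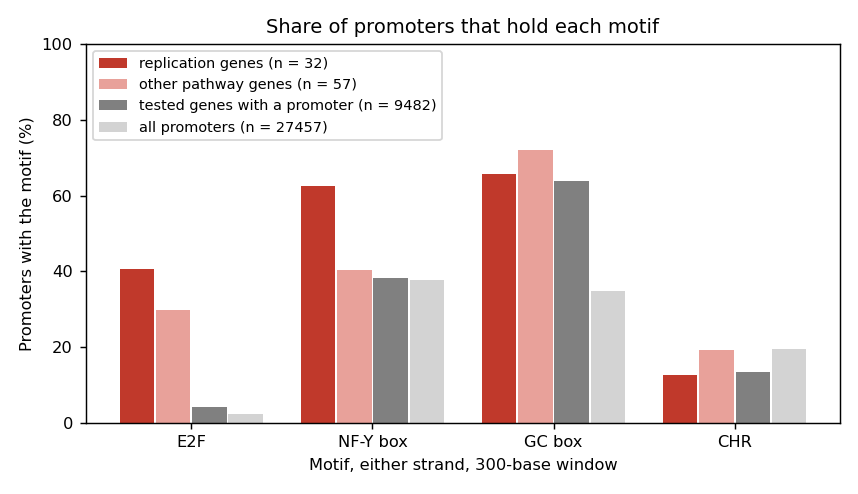
Percentage of promoters (300-base windows) that hold each motif on either strand, for the 32 replication genes with a promoter in the table, 57 other pathway genes, the tested genes with a promoter and all promoters. E2F words were in 40.6% of the replication genes' promoters and 29.8% of those of other pathway genes, against 4.21% and 2.25%; the GC box does not separate the replication genes from the tested genes.

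Among origin licensing genes, all 10 were on the higher side, with a median log2 fold change of 0.31 in the 6 libraries, and 2 rose without bradykinin replicate 3. In that fit 1.95% of all genes were called higher, the share to set beside the counts of each role below. Orc6, a subunit of the origin recognition complex, was at 11.7, 8.43 and 14.7 CPM with bradykinin and at 6.10, 7.09 and 7.30 CPM in controls. The groups did not overlap, with replicate 3 highest and control replicate 1 lowest. Its log2 fold change, 0.77 ± 0.22 (SE), was the largest of the 36 but did not pass (edgeR adjusted p = 0.678; 0.106 without replicate 3). Orc1, the ATPase subunit of the same complex, was at 9.85, 8.36 and 9.05 CPM with bradykinin and 5.26, 6.39 and 7.30 CPM in controls, again without overlap. Replicate 3 was here close to the other bradykinin libraries, and the change was 0.52 ± 0.17 with it and 0.53 ± 0.17 without it (adjusted p = 0.707 and 0.134). Cdc6 and Cdt1, which load the helicase ring, had log2 fold changes of 0.40 ± 0.15 and 0.33 ± 0.13. The helicase ring itself is built from 1 copy each of Mcm2 to Mcm7, and its 6 genes had similar shifts once replicate 3 was left out. Their log2 fold changes then ran from 0.20 (Mcm4) to 0.27 (Mcm5), against 0.11 (Mcm2) to 0.32 (Mcm6) in the 6 libraries. The mean of bradykinin replicates 1 and 2 over the control mean was 1.148 to 1.21 for these 6 genes.

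Mcm2, a subunit of that ring, was at 143, 137 and 114 CPM with bradykinin and at 119.8, 119.8 and 125 CPM in controls. Replicates 1 and 2 were above every control and replicate 3 below every control. Its log2 fold change was 0.11 ± 0.11 in the 6 libraries (edgeR adjusted p = 0.75) and 0.21 ± 0.05 without replicate 3 (adjusted p = 0.042), a rise of small size. Mcm5 rose as well in the 5 libraries (0.27 ± 0.07, adjusted p = 0.0409), and in replicate 3, at 118 CPM, it lay within the controls (104 to 120.3 CPM). Mcm3, Mcm4, Mcm6 and Mcm7 had changes of 0.21, 0.20, 0.27 and 0.21 in that fit and did not pass (adjusted p from 0.0743 to 0.102).

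The 4 helicase activation genes were higher in the 6 libraries by a median log2 fold change of 0.47, and 0 of 4 passed in either fit. All 4 had an unadjusted p under 0.05 (edgeR) on the higher side without replicate 3, against 8.5% of all genes. Cdc45, which joins the ring to form the active helicase, was at 21.4, 19.4 and 25.97 CPM with bradykinin and 15.3, 16.01 and 17.2 CPM in controls. No bradykinin library reached down to the controls (0.46 ± 0.14, adjusted p = 0.681; 0.34 ± 0.11, adjusted p = 0.122 without replicate 3). The GINS subunit gene Gins2 was at 14.2, 14.8 and 21.9 CPM with bradykinin, against 11.5, 12.5 and 12.4 CPM in controls. Gins2 and Gins1 were both led by replicate 3, at 1.80 and 2.29 times the control mean, while replicates 1 and 2 averaged 1.19 and 1.22 times that mean. Leaving out replicate 3 brought their log2 fold changes to 0.25 ± 0.11 and 0.28 ± 0.13, against 0.48 ± 0.19 and 0.66 ± 0.26 with it. Mcm10, a scaffold that helps start the helicase, was at 28.6, 25.5 and 21.2 CPM with bradykinin and 20.1, 23.2 and 23.9 CPM in controls. Here replicate 3 lay inside the control range (0.17 ± 0.15; 0.27 ± 0.10 without it).

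The 5 polymerase and primase genes were on the higher side by a median log2 fold change of 0.21 in the 6 libraries, and 1 of them, Pole, rose without replicate 3. Their summed level was 246, 234 and 211 CPM in bradykinin replicates 1, 2 and 3 and 190.3, 193 and 216 CPM in controls. Pole, the catalytic subunit of the leading-strand polymerase epsilon, was at 59.0, 55.1 and 29.4 CPM with bradykinin and 39.6, 41.0 and 49.5 CPM in controls. Replicates 1 and 2 were above every control and replicate 3 was the lowest library of all. The log2 fold change was 0.14 ± 0.25 in the 6 libraries (edgeR adjusted p = 0.839), the largest p of the 36 genes, and 0.40 ± 0.09 without replicate 3, where Pole rose (adjusted p = 0.0313). Pola1 and Pola2, the catalytic and B subunits of polymerase alpha, were likewise above every control in replicates 1 and 2 and inside the control range in replicate 3, with log2 fold changes of 0.17 ± 0.14 and 0.23 ± 0.15 with replicate 3 and 0.29 ± 0.08 and 0.35 ± 0.11 without it, and did not pass. Pold1, the catalytic subunit of the lagging-strand polymerase delta, was at 42.3, 38.5 and 41.9 CPM with bradykinin and 30.5, 34.5 and 34.1 CPM in controls. Its bradykinin libraries were alike and all above the controls (0.31 ± 0.10, adjusted p = 0.71; 0.29 ± 0.08, adjusted p = 0.0803 without replicate 3). Prim1, the primase subunit that makes the RNA primer, was at 69.2, 71.2 and 83.7 CPM with bradykinin, against 65.6, 59.5 and 69.2 CPM in controls, with bradykinin replicate 1 at 69.20 CPM just above control replicate 3 at 69.15 CPM.

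**Figure D3:**
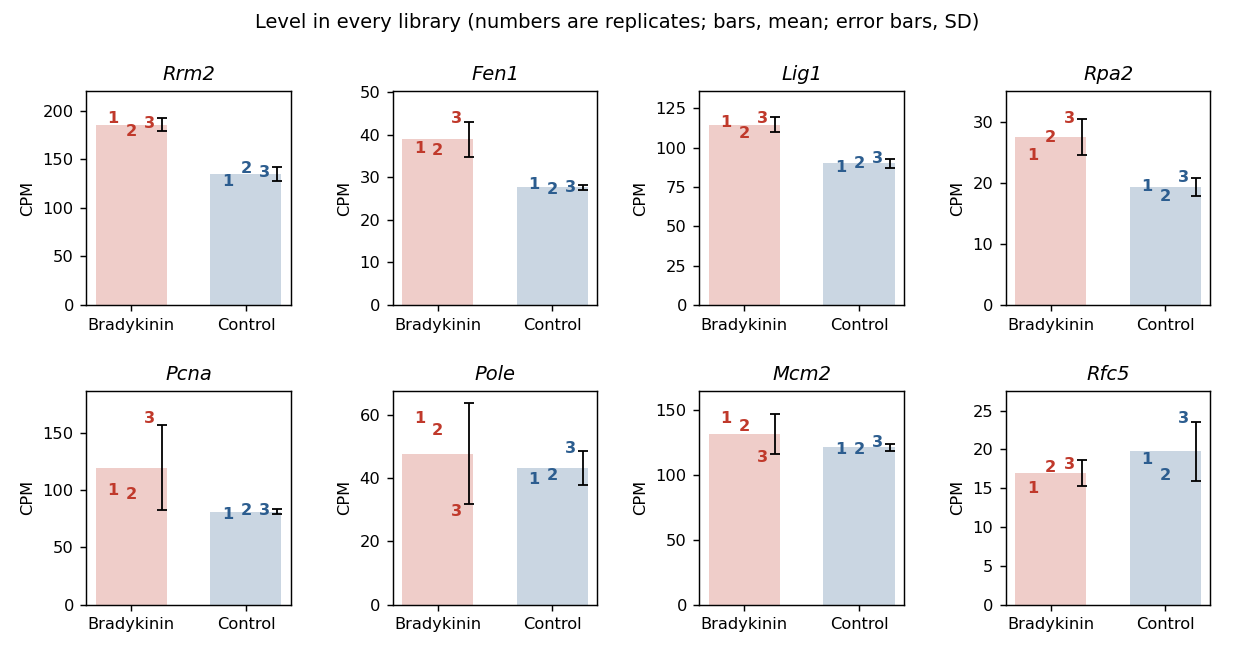
Level in CPM of 8 members in every library, with bradykinin left of control; digits are replicate numbers, bars the mean and error bars the SD over 3 libraries. Rrm2, Fen1, Lig1 and Rpa2 do not overlap between groups, Pcna is led by bradykinin replicate 3 at 163 CPM, and in Pole and Mcm2 that replicate falls below every control.

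The sliding clamp and clamp loader genes included 2 that rose without replicate 3, Pcna and Chtf18, and several that were high mainly in replicate 3. Pcna, the clamp that holds polymerases on DNA, was at 99.8, 96.6 and 163 CPM with bradykinin and 78.5, 82.1 and 82.4 CPM in controls. All bradykinin libraries were above the controls, and replicate 3 was at 2.01 times the control mean, against 1.21 for the mean of replicates 1 and 2. The SE was larger with replicate 3 (0.56 ± 0.20, edgeR adjusted p = 0.714) than without it (0.28 ± 0.06, adjusted p = 0.0148). Chtf18, part of an alternative clamp loader that acts in sister chromatid cohesion, was at 32.4, 36.1 and 37.6 CPM with bradykinin and 24.6, 26.6 and 28.6 CPM in controls. Its replicates were close together on both sides (0.41 ± 0.11, adjusted p = 0.656), and it rose without replicate 3 (0.37 ± 0.09, adjusted p = 0.044).

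Rfc2, Rfc3 and Rfc4, small subunits of the clamp loader replication factor C, were on the higher side by log2 fold changes of 0.30 to 0.43 in the 6 libraries. In replicate 3 they stood at 1.60 to 1.87 times the control mean, and in the mean of replicates 1 and 2 at 1.04 to 1.11 times. Without replicate 3 the changes were 0.06 to 0.15 and none of these 3 genes passed (adjusted p from 0.527 to 0.844). Rfc5, the remaining small subunit, was at 14.98, 17.7 and 18.03 CPM with bradykinin and 18.7, 16.6 and 24.0 CPM in controls. The groups overlapped, control replicate 3 was the highest library, and the change of -0.23 ± 0.17 did not pass in the 6 libraries (edgeR adjusted p = 0.737) or in the 5 (-0.27 ± 0.15, adjusted p = 0.415).

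The genes for single-strand binding and lagging-strand processing had a median log2 fold change of 0.42 in the 6 libraries. All 4 had groups that did not overlap, each higher with bradykinin, against 8.84% of tested genes on that side. Without replicate 3, 3 of 4 (Fen1, Lig1 and Rpa2) rose, against 1.95% of all genes called higher. Fen1, the flap endonuclease that trims Okazaki fragments, was at 36.7, 36.2 and 43.7 CPM with bradykinin and 28.3, 27.1 and 27.5 CPM in controls, whose SD was 0.618 CPM. Every bradykinin library was well clear of every control, and the log2 fold change was 0.49 ± 0.11 in the 6 libraries (edgeR adjusted p = 0.586) and 0.40 ± 0.08 in the 5 (adjusted p = 0.0116). Lig1, the ligase that seals those fragments, was at 116, 109 and 118 CPM with bradykinin and 87.1, 89.7 and 92.9 CPM in controls. Its lowest bradykinin library was above its highest control (0.35 ± 0.09, adjusted p = 0.616; 0.33 ± 0.06, adjusted p = 0.00719 without replicate 3). Rpa2, the middle subunit of the single-strand binding protein RPA, was at 24.6, 27.6 and 30.6 CPM with bradykinin and 19.4, 17.9 and 20.95 CPM in controls. It was likewise clear of the controls (0.51 ± 0.13, adjusted p = 0.606; 0.43 ± 0.10, adjusted p = 0.0371 without replicate 3). The large subunit gene Rpa1 had a smaller log2 fold change, 0.27 ± 0.11 and 0.19 ± 0.06 without replicate 3, and did not pass (adjusted p = 0.714 and 0.122).

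Neither large subunit of chromatin assembly factor 1, which places histones on new DNA, passed in either fit. Chaf1a was at 54.3, 43.9 and 45.2 CPM with bradykinin and 40.7, 43.4 and 42.2 CPM in controls. The groups did not overlap, but only bradykinin replicate 1 was far from the controls (0.18 ± 0.11, edgeR adjusted p = 0.737). Chaf1b was at 17.7, 12.8 and 18.2 CPM with bradykinin and 10.7, 14.4 and 13.9 CPM in controls, and replicate 2 fell inside the control range (0.32 ± 0.19, adjusted p = 0.737).

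Of the 5 nucleotide supply genes, 2 rose without replicate 3, and both encode ribonucleotide reductase, the enzyme that turns ribonucleotides into deoxyribonucleotides. Rrm2, its small subunit made in S phase, was at 192, 178 and 187 CPM with bradykinin and 127, 141 and 137 CPM in controls. The lowest bradykinin library was above the highest control, replicate 3 lay between the other bradykinin libraries, and the log2 fold change was 0.46 ± 0.09 with it and 0.46 ± 0.06 without it. The mean was 186 ± 6.76 CPM with bradykinin and 135 ± 7.07 CPM in controls (SD, n = 3 each). Rrm2 had the smallest p of the 36 genes, with an edgeR adjusted p of 0.525 in the 6 libraries, 0.000702 without replicate 3 and 0.0182 by DESeq2 in the 6 libraries. It was also the 1 member called in all 8 fits that left replicate 3 out. The large subunit gene Rrm1 was at 183, 179 and 169.5 CPM with bradykinin and 151, 158 and 159 CPM in controls, a smaller change (0.19 ± 0.09; 0.22 ± 0.05, adjusted p = 0.0267 without replicate 3). Tyms, which encodes thymidylate synthase, was at 43.8, 38.4 and 37.9 CPM with bradykinin and 33.9, 33.8 and 34.95 CPM in controls. Its groups did not overlap (0.23 ± 0.10, adjusted p = 0.737; 0.26 ± 0.08, adjusted p = 0.0966 without replicate 3). Tk1, the thymidine salvage kinase, had a log2 fold change of 0.25 ± 0.12 with overlapping groups.

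Dut, which encodes the dUTPase that keeps uracil out of DNA, depended on replicate 3 for its direction. It was at 28.9, 24.9 and 53.8 CPM with bradykinin and 25.8, 27.2 and 27.9 CPM in controls. Replicate 3 alone was high, at 1.99 times the control mean, while replicates 1 and 2 spanned the controls. The log2 fold change was 0.41 ± 0.27 in the 6 libraries (edgeR adjusted p = 0.737) and -0.01 ± 0.09 without replicate 3 (adjusted p = 0.984).

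**Figure D4:**
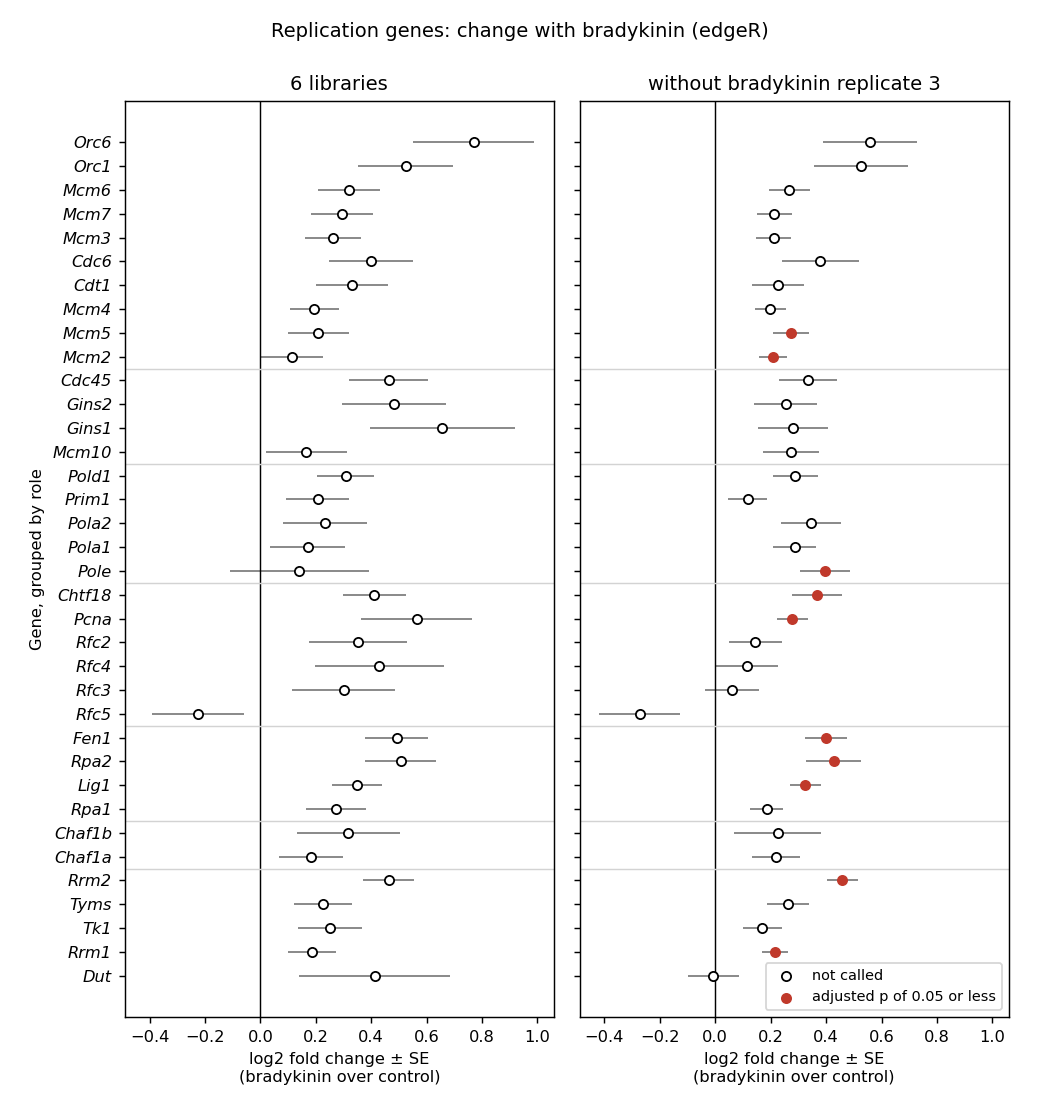
Log2 fold change (bradykinin over control) ± SE of each member by edgeR in the 6 libraries (left) and without bradykinin replicate 3 (right), grouped by role; filled points passed an adjusted p of 0.05 or less over all genes. No point is filled on the left and 10 are on the right, where error bars are shorter; Rfc5 lies below 0 in both panels and Dut moves to 0.

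Levels of members in replicate 3 ranged more widely than in the mean of replicates 1 and 2. The ratio of replicate 3 to the control mean ran from 0.679 (Pole) to 2.29 (Gins1), with a median of 1.36, and 11 of 36 members were above 1.5 times, against 12.3% of tested genes. The ratio for the mean of replicates 1 and 2 ran only from 0.827 (Rfc5) to 1.48 (Orc6), with a median of 1.20 against 1.00 for all tested genes, and it was above 1 for 34 of 36 members. Leaving out replicate 3 made the absolute change smaller for 24 members and larger for 12. Of the 10 members called without it, 7 were above every control in replicate 3 as well, and Mcm2, Mcm5 and Pole were not.

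**Figure D5:**
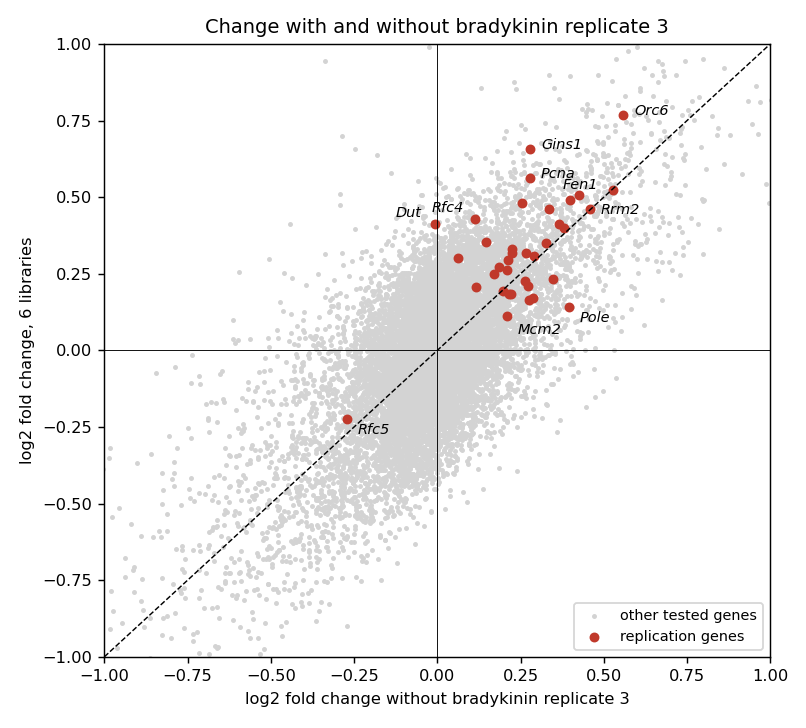
Log2 fold change in the 6 libraries (vertical) against that without bradykinin replicate 3 (horizontal) for the replication genes (red) and other tested genes (grey); both fits share 5 libraries, the dashed line marks equal values, and genes beyond ±1 are not shown. Gins1, Pcna, Rfc4 and Dut lie above the line, Pole and Mcm2 below it, and Rrm2 on it.

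Other genes of the pathway had a smaller median shift than the members in the 6 libraries. Of 73 listed, 69 had a row and 68 were tested. On the higher side were 53, against 51.3% of all tested genes, with a median log2 fold change of 0.14. EdgeR called 0 in the 6 libraries, with 11 at an unadjusted p under 0.05, all higher, against 3.95% of all tested genes on that side. Limma-voom and DESeq2 also called 0 of them, where they called 0.0% and 0.354% of all tested genes. By limma-voom 9 had an unadjusted p under 0.05, against 6.83% of all tested genes. Without replicate 3, 4 of the 68 rose and 0 fell, against 1.95% of all genes called higher in that fit. The 4 were Asf1b, Wdhd1, Recql4 and Dnmt1, of which Asf1b and Dnmt1 were close to the threshold (edgeR adjusted p of 0.0475 for Asf1b and 0.0493 for Dnmt1). With control replicate 1, 2 or 3 also left out 0, 0 or 2 of the 68 were called, and with RLE factors or library totals 2 each. Asf1b, a histone chaperone, had the smallest p of this list, at 26.7, 23.1 and 27.9 CPM with bradykinin and 18.4, 18.3 and 19.9 CPM in controls. Its groups were apart (0.46 ± 0.12, adjusted p = 0.624; 0.40, adjusted p = 0.0475 without replicate 3). Cdc7, the kinase that fires licensed origins, was at 13.01, 13.95 and 14.6 CPM with bradykinin and 9.48, 9.34 and 10.9 CPM in controls, also apart, and did not pass (0.49 ± 0.13, adjusted p = 0.634). Gins3, another GINS subunit, was at 10.6, 7.70 and 11.8 CPM with bradykinin and 4.94, 5.34 and 7.44 CPM in controls (0.76 ± 0.23, adjusted p = 0.678). Its groups did not overlap, with control replicate 3 close below bradykinin replicate 2. Donson, a replisome protein, was at 12.4, 10.8 and 11.2 CPM with bradykinin and 8.51, 8.64 and 9.13 CPM in controls (0.39 ± 0.13, adjusted p = 0.71). Wdhd1, an adaptor between helicase and polymerase alpha, was at 58.6, 51.2 and 46.9 CPM with bradykinin and 38.8, 41.9 and 43.8 CPM in controls (0.33 ± 0.12, adjusted p = 0.714; 0.40 ± 0.08, adjusted p = 0.0141 without replicate 3). Dck, the deoxycytidine salvage kinase, was at 15.6, 11.8 and 12.8 CPM with bradykinin and 8.38, 10.3 and 10.95 CPM in controls (0.44 ± 0.17, adjusted p = 0.714). In these 3 genes as well, every bradykinin library was above every control.

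By role, the other helicase activation genes had 10 of 11 on the higher side in the 6 libraries, with a median of 0.28. Without replicate 3 there were 11 of 11, with a median of 0.29. The remaining roles except nucleotide supply had medians from 0.07 (origin licensing) to 0.30 (polymerases and primase) in the 6 libraries. For polymerases and primase this was above the median of the members, 0.21, while in every other role the members had the larger median. The 26 other nucleotide supply genes, mostly of purine and pyrimidine synthesis, had 18 of 26 on the higher side in the 6 libraries. Their median was 0.14 in the 6 libraries and 0.02 without replicate 3, and edgeR called 0 in either. At an unadjusted p under 0.05 (edgeR) were 1 and 2 of them, all higher, against 3.95% and 8.5% of all tested genes on that side. Of the mitosis markers, whose genes act after replication, 6 of 10 passed without replicate 3, all 6 higher, against 1.95% of all genes called higher. Top2a and Aurkb were among them (log2 fold changes of 0.46 for Top2a and 0.43 for Aurkb), and 0 of 10 passed in the 6 libraries. Their summed level was 1247 to 1643 CPM with bradykinin and 1139 to 1309 CPM in controls, and their part in the results was not tested. Mki67, a general proliferation marker, was at 539, 445 and 230 CPM with bradykinin and 349, 423 and 433 CPM in controls, so that replicate 3 was its lowest library (log2 fold change 0.01 in the 6 libraries and 0.29 without replicate 3, where it did not pass).

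Whether counting used strand is not stated, so reads of a member and of an overlapping gene cannot be told apart. In the GRCr8 annotation 5 members overlap a named protein-coding gene. Cys1, which overlaps Rrm2, was at 1.96 to 2.92 CPM with bradykinin and 2.34 to 2.74 CPM in controls, and Zswim9, which overlaps Lig1, at 6.78 to 8.66 CPM with bradykinin and 6.76 to 8.21 CPM in controls. Gng13, which overlaps Chtf18, had no count in the bradykinin libraries and at most 0.0676 CPM in controls, and Gse1, which overlaps Gins2, was at 12.04 to 26.1 CPM with bradykinin and 23.7 to 24.3 CPM in controls. The gene Tmem258, which overlaps Fen1, was not analysed here.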

How the data were processed

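The submitters' processing notes name DESeq2 1.34.0, RSEM 1.3.3, SAMtools, HISAT2 2.2.1, Bowtie2 2.4.5 and fastp 0.23.2, and the build Rnor_6.0. Values deposited by the authors are raw counts, whole for each gene and without normalization. RSEM divides reads between similar genes by estimate, and no source used here says how its estimates became whole. Treated samples are titled B2R and were grouped by their treatment label, which names bradykinin.

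Symbols came from the Entrez identifiers, matched for 15073 genes to a RefSeq gene table of GRCr8, which also gave the promoters. That assembly differs from Rnor_6.0, so no coordinates of counted features are given. The comparison used edgeR 4.0.16 in R 4.3.3, with filterByExpr, TMM, a two-sided quasi-likelihood F test, and Benjamini-Hochberg adjustment over all tested genes, called at 0.05 or less. The SE is the log2 fold change divided by the root of F. CPM use TMM-scaled library sizes over tested genes, and deviations use log2 CPM with a prior count of 2. Alternatives were RLE, library totals, DESeq2 1.42.0, limma-voom (limma 3.58.1), 2 filters, a replicate block and libraries left out; quality weights and the other tools without bradykinin replicate 3 were added after seeing the data. The edgeR script was tested on simulated counts.

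All members are named. By rule, values of every library are given for the 2 members of each role with the smallest p, the 5 smallest overall and the 3 largest; those of Rrm1, Dut and Rfc5, and the sequences printed, were chosen after their values were seen. The members and lists were chosen with earlier results of these data known. Chi-square values per degree of freedom between replicates, 2.26 to 3.64 among controls, 5.04 between bradykinin replicates 1 and 2 and 72.4 and 76.0 with replicate 3, gave no sign of a library deposited again.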

Additional observations from a re-analysis of the deposited data

How the results depend on the processing

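Members called stayed at 0 in the 6 libraries under RLE factors, library totals, limma-voom, both filters and the replicate block, and DESeq2 called 1 member and 44 genes in all. Leaving out a single library gave 0 to 10 members, 0 to 388 genes and 0 to 4 other pathway genes called, the highest each time without bradykinin replicate 3. With control replicate 1, 2 or 3 also left out, 145, 138 or 209 genes, 3, 1 or 8 members and 0, 0 or 2 other pathway genes were called, and over all fits with libraries left out the member median ran from 0.2159 (without bradykinin replicate 3 and control replicate 1) to 0.378 (without bradykinin replicate 2). Quality weights called 260 genes, 5 members and 3 other pathway genes. In the 5 libraries, DESeq2 called 347, 9 and 3, limma-voom 374, 10 and 3, RLE 374, 10 and 2, and library totals 347, 4 and 2, with a median of 0.0554 for the other pathway genes. There, library totals turned the split of called genes from 244 higher and 144 lower by TMM to 162 and 185, and moved the median of all genes to -0.03. The number of members on the higher side was 34 or 35 throughout. Signs turned for Pole without bradykinin replicate 1 (-0.0365; its range over left-out libraries was -0.0365 to 0.5021), and for Dut without replicate 3 (-0.0071; range -0.0421 to 0.6155), also with control replicate 1 (-0.0421) or 2 (-0.0014) left out, and by DESeq2 (-0.0086), limma-voom (-0.0114), RLE (-0.0091) and library totals (-0.0387). The cause was not tested.

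Deviations from the group means gave no sign that replicate numbers pair the samples: they correlated at -0.0939, -0.0169 and -0.0514 for numbers 1, 2 and 3. The bradykinin mean in this check includes the outlying replicate 3, and the check was not repeated without it. Pairing is therefore not excluded. With the replicate block 0 genes and 0 members were called, 35 members were on the higher side and the median was 0.31. The fit without the block also called 0, so the block had no call to remove. It was not fitted without bradykinin replicate 3. The E2F words stood in 13 promoters with the shorter window as well. The 3 libraries per group and the spread added by replicate 3 (common biological coefficient of variation 0.168 with it and 0.0537 without) limit what could be called.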
